A study of Drosophila melanogaster with 3 samples.

Results

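Axon guidance genes encode the cues, receptors and intracellular effectors that steer growing axons, and 33 of them were examined in a ChIP-seq study of the Drosophila transcription factor Ets65A. The list was taken by gene symbol, all 33 symbols were found in the annotation, and they were set beside the 13945 protein-coding genes of chromosome arms X, 2L, 2R, 3L, 3R and 4. The embryos were of the transgenic strain ets3-GFP, 0 to 24 h old, of both sexes pooled and taken whole, and carried an Ets65A transgene tagged with GFP at the C-terminus. All 3 libraries carry it, with 1 technical replicate each, and the sonicated fragments were of 200 to 800 bp. Chromatin was precipitated with an antibody to GFP according to the description, while the antibody label names Ets65A itself, and the libraries form 1 group of 3 biological replicates. There is therefore no contrast between conditions. The starting material was whole embryos of mixed stages, so the lists cannot separate cell types or stages.

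Axons crossing the embryonic ventral nerve cord are attracted to the midline by Netrins through Frazzled and repelled by Slit through the Robo receptors. Semaphorins act through Plexins, while Ephrin and Wnt5 act through Eph and Derailed, and Sidestep is bound by Beaten path proteins. Receptor tyrosine phosphatases and the Abl, Dock, Trio and Pak proteins pass these signals to the actin cytoskeleton. Ets65A belongs to the ETS family, whose DNA-binding domain recognises a GGAA core.

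The authors' list of peaks that passed a threshold of irreproducible discovery rate (IDR) held 2780 peaks in the dm6 build, each with a summit and a signal value, a score of the peak caller without a stated scale. A summit no more than 500 bp away from a transcription start (TSS) is called a promoter summit here. Signal values in that list began at 71.8 and had a median of 110.2 and a maximum of 1498. The depth of each replicate is unknown, since these lists give positions and scores but no reads, and the intervals given cover counting error over genes or peaks only. No input or mock library was analysed here.

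The share of axon guidance genes with a promoter summit was near that of genes of like length. A promoter summit was found at 7 of the 33 genes, namely robo2, unc-5, PlexA, Abl, dock, Pak and lola (21.2%, 95% Wilson interval 10.7 to 37.8), against 15.8% of all protein-coding genes. Within the gene body or 1000 bp around it, 16 of the 33 genes had a summit (48.5%, 32.5 to 64.8), against 23.0% of all protein-coding genes. The axon guidance genes are long, with a median length of 33.3 kb against 2.17 kb over all protein-coding genes, and long genes have more room for a summit. Were each length class to hold summits at the share of all its genes, 6.8 of the 33 would have a promoter summit and 13.3 a summit in the body or its flanks. Read against genes of like length, neither count stands far from the background. The promoter count depended on the replicates: with only the IDR peaks among the strongest of the remaining pair, it was 6 genes without replicate 1, 4 without replicate 2 and 3 without replicate 3, against 11.6%, 10.6% and 11.4% of all protein-coding genes. In the body or flanks it was 12, 8 and 8 genes, against 17.3%, 15.8% and 17.0%. The whole list shrinks when a replicate is left out, so part of the fall in both counts is built in. These shares do not allow for gene length.

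Genes of 20 to under 60 kb held most of the summits. In this class 9 of 13 axon guidance genes had a summit in the body or its flanks, against 40.5% of all genes of that length, and 3 of 13 had a promoter summit, against 19.7%. Of the 11 axon guidance genes of 5 to under 20 kb, 3 had a summit of either kind, against 33.9% in the body or flanks and 21.9% at promoters for all genes of that length. Of the 8 genes of 60 kb and over, 4 had a summit in the body or flanks and 1 at a promoter, against 51.3% and 21.3%. The class under 5 kb held only Wnt5, which had neither, against 18.5% and 13.9% of all such genes. Only in the class of 20 to under 60 kb, of these 4, was the share in the body or flanks above that of all genes.

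**Figure D1:**
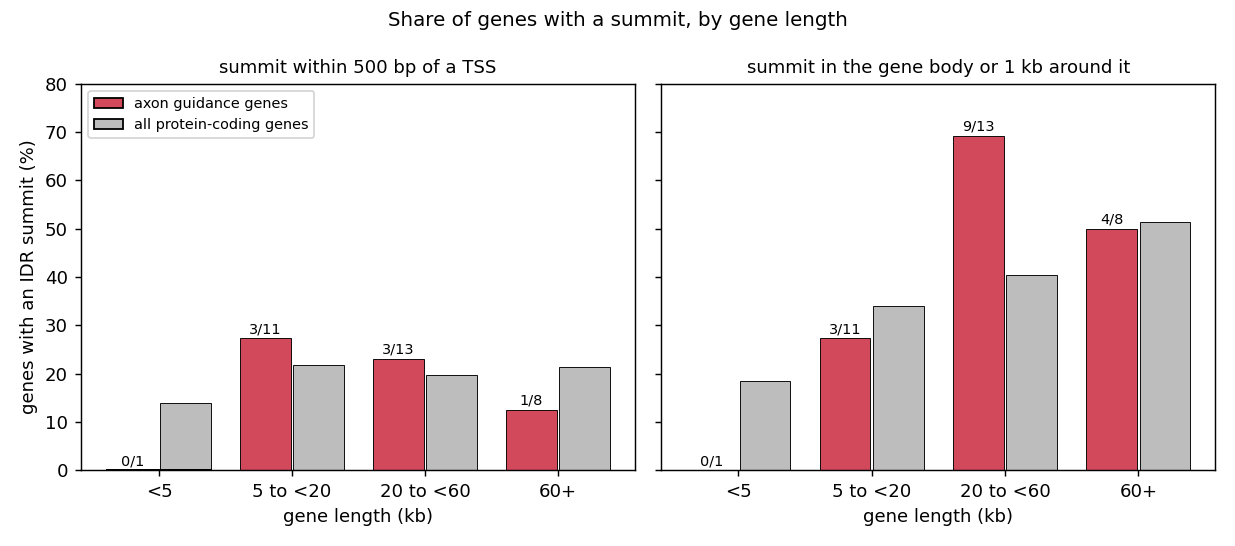
Share of genes with an IDR summit in percent (y) by gene length in kb (x), for axon guidance genes (red, with counts above the bars) and all protein-coding genes (grey), for promoter summits (left) and summits in the gene body or 1 kb around it (right). The red bar stands above the grey one in the body panel only for genes of 20 to under 60 kb, at 9 of 13 genes against 40.5%.

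Altogether 24 distinct summits lay at the 16 genes, 12 genes with 1 summit and 4 genes with more. Over the 33 loci with their flanks this was 1.71 summits per 100 kb, against 3.33 per 100 kb over all protein-coding genes. In genes of 20 to under 60 kb the density was 3.2 per 100 kb at axon guidance genes and 2.03 over all genes of that length, and in genes of 60 kb and over it was 0.552 and 0.985. The mean numbers of summits per gene in the length classes would have given 23.8 for this list. Without replicate 1, 2 or 3 there were 14, 12 and 10 summits. The whole IDR list also shrank, from 2780 peaks to 2001, 1783 and 1933, so part of this fall is built in.

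In the full IDR list, more of the summits lay in introns than at promoters. Of the 24, 15 were in introns, 8 at a promoter of a protein-coding gene and 1 between genes, and 0 were in coding exons or in untranslated regions away from promoters. Over all IDR summits the shares were 26.7% in introns, 59.1% at promoters and 11.3% between genes. Coding exons held 0.18%, 5′ UTRs 0.432% and 3′ UTRs 0.612%, so the 0 is near the background. Of the 24 summits, 66.7% lay outside promoters (95% Wilson interval 46.7 to 82.0), against 40.9% of all 2780 IDR summits. That comparison does not allow for gene length, and long genes have more room for an intronic summit. No share for genes of like length is given. With a replicate left out the share was lower, at 7 of 14 summits without replicate 1, 7 of 12 without replicate 2 and 6 of 10 without replicate 3, so that without replicate 1 there was no majority outside promoters. No matching share over all IDR peaks is given for these shorter lists. The intronic summits belonged to 10 genes, at 1.1 to 31.8 kb from the nearest TSS of the gene with a median of 11.8 kb, and 9 of the 15 were more than 10 kb away. Of the 10 genes with an intronic summit, 9 had none within 500 bp of their own TSSs.

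**Figure D2:**
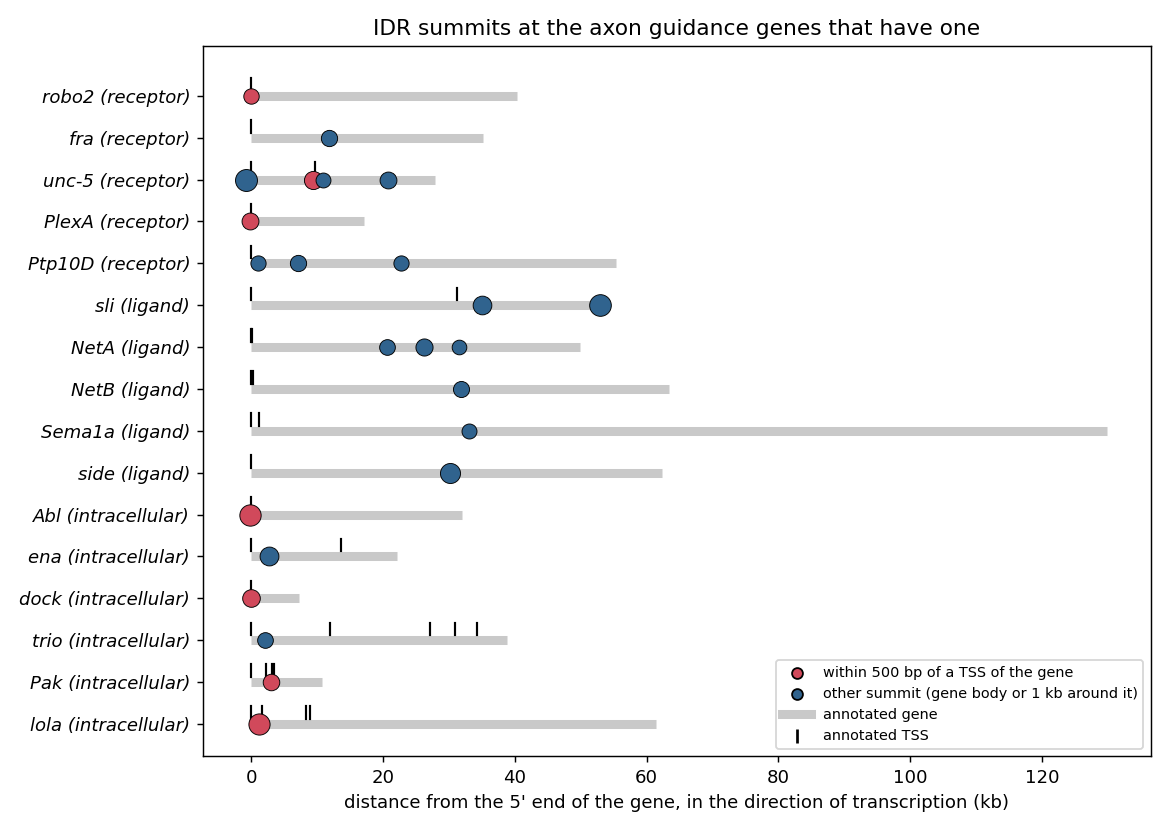
Position of each IDR summit along the 16 axon guidance genes that have one, as distance from the 5′ end of the gene in kb in the direction of transcription (x), with genes grouped by role (y), grey bars for the annotated gene and ticks for annotated TSSs. Red points are summits within 500 bp of a TSS of the gene itself, blue points are the others, and larger points have higher signal values; the 5 ligands carry blue points only, while Abl, dock, Pak and lola each carry 1 red point near a TSS.

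By role, counts are given beside 15.8% of all protein-coding genes for promoter summits and 23.0% for the body or flanks, without regard to gene length. Each of the 6 intracellular genes had a summit, 4 of them at a promoter, and these were 6 summits in all. Of the 14 receptor genes 5 had a summit and 3 a promoter summit. Of the 11 ligand genes, counting the surface cue side and its partner beat-Ia here, 5 had a summit in the body or its flanks and 0 at their own promoter. Fas2, a homophilic adhesion molecule, and comm, which keeps Robo off the surface of crossing axons, had none. These groups are small, were formed by known function, and differences between them were not tested.

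Among the receptors, unc-5 had the most summits. The gene for this repulsive Netrin receptor (FBgn0034013, chr2R:15340472-15368300, plus strand, 27.8 kb) held 4, or 13.4 per 100 kb. The strongest (summit 15339682) had a signal value of 164, the highest of any at the axon guidance genes, and lay 790 bp upstream of the first TSS, outside the promoter limit. In the replicates' own lists its peak had signal values of 33.9, 65.4 and 60.1 and ranks of 1109, 640 and 585 in replicates 1, 2 and 3. It was thus among the strongest 2780 peaks of every replicate, lowest in replicate 1. The promoter summit (15349916) lay 217 bp upstream of an internal TSS, in intron 1 of 10 of the canonical transcript, with a signal value of 112 and ranks of 921, 1748 and 1265. The other summits were in intron 6 (15361208, signal value 96.9, with a TSS of Pms2 at 10312 bp) and intron 2 (15351360, 75.8), and the last ranked 6910, 1973 and 4705, inside the strongest 2780 only in replicate 2.

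The Netrin receptor of attraction, fra (FBgn0011592, chr2R:12529053-12564184), had 1 summit, in intron 1 at 11.8 kb from the TSS (12540815, signal value 90.3, ranks 2939, 1916 and 2116), with a TSS of CG33752 nearer, at 4874 bp. Its strongest promoter peak in the pooled list, the authors' list from the 3 replicates together, had a signal value of 47.9. Of the Slit receptors, robo2 (FBgn0002543, chr2L:1380086-1420453) had a promoter summit 29 bp downstream of its only TSS (1420424, 80.7). Replicate 1 had no peak there, while replicates 2 and 3 had signal values of 33.3 and 42.9 (ranks 2249 and 1174). The summit of robo2 therefore rested on these replicates. robo1 and robo3 had no IDR summit, and their strongest pooled peaks, both within 500 bp of a TSS, had signal values of 48.9 and 25.6.

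PlexA, a Semaphorin receptor on chromosome 4 (FBgn0025741, chr4:1009895-1027101), had a promoter summit 126 bp upstream of its TSS (1027227, signal value 97.3). Its signal values were 29.0, 28.8 and 35.4 in replicates 1, 2 and 3 (ranks 1436, 2832 and 1745), with replicate 2 just outside the strongest 2780. PlexB, the other Plexin gene of that chromosome, had none. Its strongest pooled peak (43.8) was at the promoter and ranked 1784 in replicate 1 and 11632 in replicate 2, with no peak in replicate 3.

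Ptp10D, a receptor tyrosine phosphatase (FBgn0004370, chrX:11622015-11677338, plus strand), had 3 intronic summits and no promoter summit. They lay 1124 bp, 7127 bp and 22705 bp from the TSS with signal values of 79.0, 90.2 and 78.9. Each was inside the strongest 2780 in at most 2 replicates: the nearest ranked 1503, 2170 and 10421, the middle one 6295, 2058 and 2332, and the farthest 8752, 2796 and 2010. Its strongest pooled promoter peak had a signal value of 61.6. The other receptor phosphatases, Lar, Ptp69D and Ptp99A, had no IDR summit, with strongest pooled peaks of 59.2, 29.7 and 66.4, all at promoters.

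The Netrin genes, neighbours on the X chromosome, both had intronic summits far from their TSSs. NetA (FBgn0015773, chrX:14604012-14653928, minus strand) had 3 in intron 1, which is 31.3 kb long. They spanned 10.9 kb, at summits 14622348, 14627660 and 14633289, with signal values of 73.3, 99.9 and 84.0. The middle one was among the strongest 2780 peaks of all replicates (ranks 2383, 1685 and 1579), with a TSS of sbm slightly nearer than that of NetA, at 25080 bp against 26174 bp. The one farthest from the TSS was the lowest of all 24 summits and was among the strongest in replicate 1 only (1331, against 3564 in replicate 2 and 6667 in replicate 3). NetB (FBgn0015774, chrX:14686038-14749376) had 1 summit in intron 3 of 8 (14717464, 87.9, ranks 2379, 4006 and 1307), 31.5 kb from its own nearest TSS but 1478 bp from that of hog. The strongest pooled promoter peaks of NetA and NetB had signal values of 22.4 and 18.7.

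Among the other ligands and cues, side had a strong intronic summit (FBgn0016061, chr3R:27375088-27437482, minus strand). Sidestep is a surface protein that guides motor axons to muscle. The summit (27407258, signal value 137) lay in intron 2 of 17, itself 17.8 kb long, at 30.2 kb from the TSS. Its signal values were 46.3, 48.9 and 38.5 in replicates 1, 2 and 3, with ranks of 632, 1158 and 1466. The value in replicate 1 was the highest of that replicate among the 24 summits. Sema1a, a transmembrane Semaphorin that also acts as a receptor (FBgn0011259, chr2L:8542147-8672041), had 1 summit in intron 3 at 31.8 kb from its TSS (8575159, 76.6, ranks 2236, 3195 and 3103).

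Windows of 201 bases centred on the summit are shown for 3 promoter summits (Abl, PlexA and Pak) and 3 intronic ones (side, NetA and Ptp10D), as examples of what lay under the peaks. The first 5 are the strongest of their kind on arms X, 2L, 3L, 3R and 4 with few or no UTR bases in the window. Stronger summits on the remaining arm are not shown. The Ptp10D one was chosen, after its sequence was seen, because it holds CCGGAA. The bases are from the RefSeq copy of the dm6 assembly, 5′ to 3′ on the strand of the gene, and capitals mark matches on either strand to the motifs named in the text that follows.
Abl promoter, chr3L:16647877-16648077, minus strand: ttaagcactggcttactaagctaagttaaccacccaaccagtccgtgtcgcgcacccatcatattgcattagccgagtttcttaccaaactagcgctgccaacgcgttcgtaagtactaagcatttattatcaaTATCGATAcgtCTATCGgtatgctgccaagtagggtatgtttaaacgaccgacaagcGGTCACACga
PlexA promoter, chr4:1027127-1027327, minus strand: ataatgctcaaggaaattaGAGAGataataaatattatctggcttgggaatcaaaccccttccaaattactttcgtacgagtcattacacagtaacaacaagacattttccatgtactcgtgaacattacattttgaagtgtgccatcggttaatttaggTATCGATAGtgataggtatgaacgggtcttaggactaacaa
Pak internal promoter, chr3R:6353795-6353995, plus strand: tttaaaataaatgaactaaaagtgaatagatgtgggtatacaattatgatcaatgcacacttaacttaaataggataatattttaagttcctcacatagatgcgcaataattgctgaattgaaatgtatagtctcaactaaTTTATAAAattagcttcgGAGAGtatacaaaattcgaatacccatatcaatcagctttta
side intron, chr3R:27407158-27407358, minus strand: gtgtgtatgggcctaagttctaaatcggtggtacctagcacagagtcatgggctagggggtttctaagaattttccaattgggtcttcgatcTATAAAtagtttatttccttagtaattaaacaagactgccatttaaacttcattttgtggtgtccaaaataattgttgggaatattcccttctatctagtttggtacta
NetA intron, chrX:14627560-14627760, minus strand: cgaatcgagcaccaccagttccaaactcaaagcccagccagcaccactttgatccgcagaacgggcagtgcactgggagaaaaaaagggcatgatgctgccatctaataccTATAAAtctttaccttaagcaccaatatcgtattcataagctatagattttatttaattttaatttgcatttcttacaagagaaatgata
Ptp10D intron, chrX:11644620-11644820, plus strand: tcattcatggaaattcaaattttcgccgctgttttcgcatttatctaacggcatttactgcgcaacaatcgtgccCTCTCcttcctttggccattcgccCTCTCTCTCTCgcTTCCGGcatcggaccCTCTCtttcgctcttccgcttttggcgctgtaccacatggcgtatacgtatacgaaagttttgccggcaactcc

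Promoter sequence elements were found at a few of the summits. The DRE (TATCGATA), bound by the factor Dref, lay within 100 bp of 3 of the 24 summits (12.5%), against 5.83% of all IDR summits, and the 3 were the promoter summits of Abl, dock and PlexA. Over all IDR summits at promoters the share was 9.62%, so over the whole list too the DRE was less common outside promoters. It was in 0 of the 17 summits outside the genes' own promoters, a count therefore not particular to these genes. The element GGTCACAC, bound by M1BP, was at Abl only (all summits 3.88%), so that the Abl window above holds both elements. In the PlexA window the DRE runs into CGATAG, a 6-mer that overlaps it and was at the same 3 summits (12.5%, against 14.6% of all summits).

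CCGGAA, which holds the ETS core GGAA, lay within 100 bp of 3 of the 24 summits (12.5%, against 5.61% of all IDR summits). The bare GGAA was not searched and is not marked in the windows. The 3 with CCGGAA were at robo2, at Ptp10D and beyond the 3′ end of sli, 82 bp from a TSS of the neighbouring gene Rif1. The longer CCGGAAGT was at 1, that same summit at the Rif1 promoter (4.17% against 0.719%), and the summit inside sli had neither. In the Ptp10D window above CCGGAA stands on the opposite strand between repeats of the complement of GAGAG. This 5-mer was at 6 summits (25.0%, against 22.6%), TATAAA at 10 (41.7%, against 29.6%), CAGCTG at 2 (8.33%, against 11.2%), CAGGTG at 1 (4.17%, against 6.08%) and ACACTG at 2 (8.33%, against 23.1%). CAGGTAG was at 0 (all summits 1.01%). Of the 10 summits with TATAAA, 7 were not promoter summits of the gene, as in the side and NetA windows, near the share of 17 in all 24. Over the summits left without replicate 1, 2 or 3, the DRE was at 2, 2 and 1 and CCGGAA at 2, 1 and 1. The GC content of the windows had a median of 34.6% (22.4 to 56.7), against 37.3% over all IDR summits, and its part in these shares was not tested. These letters are matches, not shown to be sites.

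The midline repellent sli (FBgn0264089, chr2R:15869495-15922118, minus strand) had 2 summits. The stronger (15869229, signal value 159.8, ranks 2079, 465 and 580) was not in the gene but 266 bp beyond its 3′ end and 82 bp from a TSS of Rif1, so it is a promoter peak of the neighbour that the 1000 bp flank brought in. The other (15887154, signal value 119, ranks 1320, 2127 and 739) was in intron 2 of 20, 3763 bp downstream of an internal TSS, and was among the strongest peaks of all replicates. At the promoters of sli itself the strongest pooled peak had a signal value of 31.8. The remaining ligand genes, Sema1b, Sema2a, Sema2b, Ephrin, Wnt5 and beat-Ia, had no IDR summit.

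The intracellular genes held most of the promoter summits. At Abl, a tyrosine kinase that acts downstream of several guidance receptors (FBgn0000017, chr3L:16615866-16647882, minus strand), the summit lay 95 bp upstream of the only TSS (16647977, signal value 155). Its peak had signal values of 37.9, 66.3 and 54.6 and ranks of 915, 620 and 709 in replicates 1, 2 and 3, among the strongest of each. At lola, which encodes a BTB zinc finger transcription factor (FBgn0283521, chr2R:10481894-10543291), it lay 409 bp upstream of an internal TSS (10542079, 153). lola had the highest value of any of the 24 in replicate 2, 84.0 at rank 370, with 44.6 and 53.3 in replicates 1 and 3. The lola summit was the one nearest to the promoter limit from inside, and the unc-5 summit at 790 bp the nearest from outside.

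At dock, an SH2-SH3 adaptor gene (FBgn0010583, chr2L:825969-833241), the summit was 37 bp upstream of the TSS (825932, signal value 106), between dock and CG3862, whose TSSs are 108 bp apart. The peak cannot be assigned to either gene. Its replicates were far apart, with signal values of 15.4, 55.1 and 28.2 and ranks of 5019, 900 and 2688. At Pak, whose product is a kinase activated by Rac and Cdc42 (FBgn0267698, chr3R:6350896-6361614), the summit lay 193 bp upstream of an internal TSS (6353895, 93.5; ranks 4223, 1518 and 1881). Both genes had their lowest rank in replicate 1, outside its strongest 2780 peaks.

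For ena, which encodes an actin-elongation factor (FBgn0000578, chr2R:19141632-19163705), the summit was 2791 bp downstream of a TSS (19144423, signal value 121), with signal values of 19.2, 68.7 and 31.5 in replicates 1, 2 and 3. Replicate 2 stood well above the others, at rank 575 against 2978 and 2186. For trio, a guanine nucleotide exchange factor gene (FBgn0024277, chr3L:995982-1034875), it was 2125 bp downstream of a TSS, in an intron (1032750, 83.9). Its signal values were 25.9, 30.6 and 25.9 in replicates 1, 2 and 3, but its ranks were 1725, 2570 and 3119. The trio summit was among the strongest peaks of replicates 1 and 2 only. It lay 1947 bp from the TSS of CG9205.

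The summits at axon guidance genes were of modest strength. Their signal values ran from 73.3 to 164 with a median of 95.2, against a median of 110.2 over all IDR peaks, and 8 of 24 were above that median. The 651 IDR peaks with signal values above 164 (23.4%) lay elsewhere. The 7 promoter summits had a median of 106 (80.7 to 155), against 112 over all IDR peaks at promoters. The 17 others, the Rif1 promoter peak beside sli among them, had a median of 90.2, against 107 for all IDR peaks outside promoters.

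Replicates agreed on 8 of the 24 summits, in that each replicate had an overlapping peak among its own strongest 2780 (33.3%, 95% Wilson interval 18.0 to 53.3). These were the summit upstream of unc-5 and its promoter summit, both sli summits, Abl, lola, side and the middle NetA summit. The share over all IDR peaks was 59.4%, and over the 2033 IDR peaks with signal values in the same range it was 49.1%. Of the rest, 12 were among the strongest of 2 replicates and 4 of 1. By replicate, 16, 17 and 19 of the 24 were inside the strongest 2780 of replicates 1, 2 and 3, against 77.5%, 86.9% and 81.4% of all IDR peaks. Every summit overlapped some peak in the 30000 of replicates 2 and 3, and 23 of 24 did in replicate 1.

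**Figure D3:**
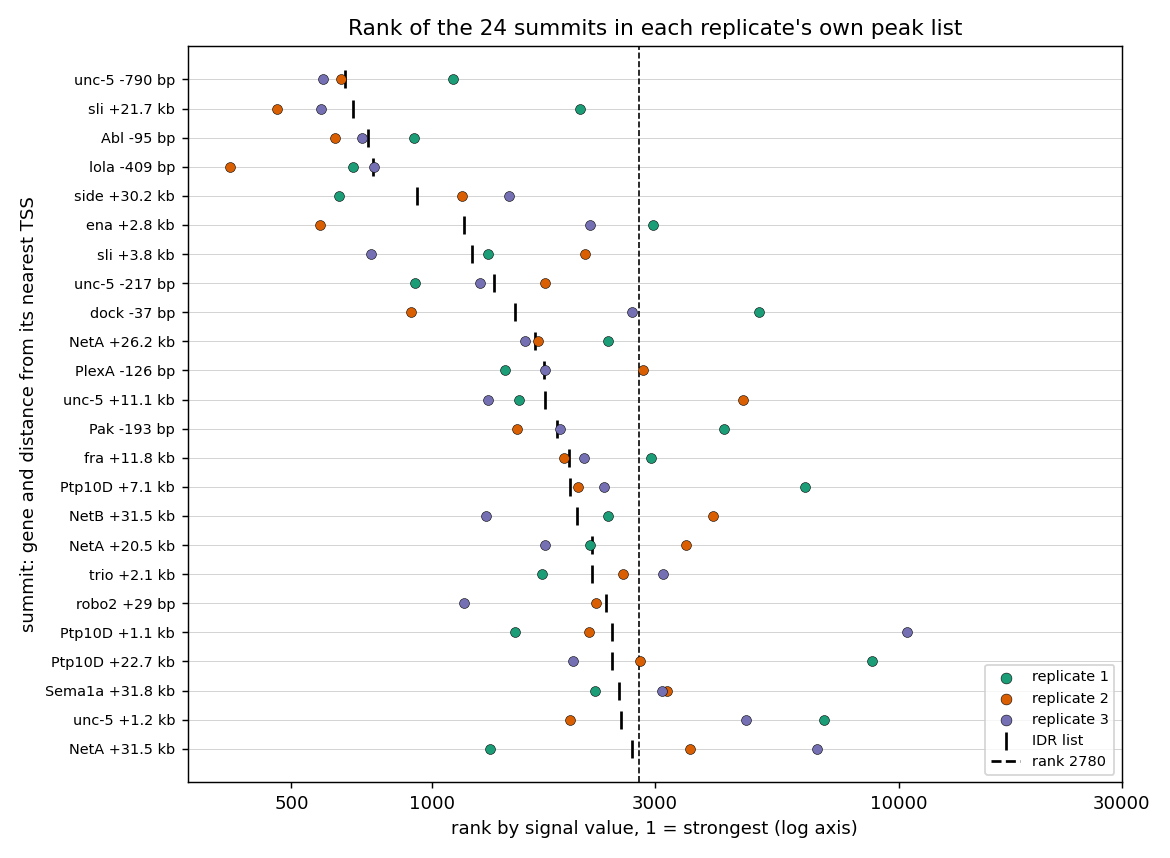
Rank by signal value (x, log axis, 1 is the strongest) of the peak at each of the 24 summits (y, gene and distance from its nearest TSS) in replicates 1, 2 and 3 (points) and in the IDR list (bar), with a dashed line at rank 2780. The 8 summits with all points left of the line include unc-5, Abl, lola and side, while Ptp10D and the lower NetA and unc-5 summits spread to ranks as low as 10421; robo2 has no point for replicate 1.

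The genes with a strong peak differed between the replicates taken alone, and replicate 3 had the most. Among the strongest 2780 peaks of replicates 1, 2 and 3, 7, 8 and 12 of the 33 genes had a promoter peak (9.0 ± 2.65, SD, n = 3), against 14.6%, 15.6% and 15.4% of all protein-coding genes. In the body or flanks it was 13, 16 and 18 genes (15.7 ± 2.52, SD, n = 3), against 22.4%, 22.9% and 22.6%. Neither comparison allows for gene length, and long genes have more room for a peak. Only Abl, lola, unc-5 and Sema1a had a strong promoter peak in all 3 replicates, of 15 genes that had one in any. The same overlap was not counted over all protein-coding genes, so it cannot be called particular to these. Replicate 3 alone put drl, comm, Fas2 and Ptp10D among them, replicate 1 alone PlexB and Ptp99A, and replicate 2 alone Lar.

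Sema1a was the one of these 4 without an IDR summit at its promoter. Its strongest promoter peaks had signal values of 26.7, 29.2 and 39.5 in replicates 1, 2 and 3, at ranks 1648, 2772 and 1389. They lay at -73, -98 and -329 bp from a TSS, with replicate 3 farther upstream than the others. In the pooled list the strongest promoter peak there had a signal value of 69.0 at rank 2960, just under the lowest IDR peak.

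Of the 17 genes without an IDR summit, every one had a peak in the longer pooled list of 28940, which runs down to a -log10 q of 0.0177 and includes calls with little evidence. In the body or flanks 73.7% of all protein-coding genes had one, a share not set beside genes of like length. The strongest pooled peak at each of the 17 had a median signal value of 44.1 (19.4 to 66.4). It lay within 500 bp of a TSS for 15 of the 17, and no matching share over all genes is given. Closest below the lowest IDR peak were Ptp99A (66.4), Dscam1 (65.4), Sema2b (61.9), Lar (59.2) and Sema2a (58.4), all at promoters. Dscam1 encodes an immunoglobulin-superfamily receptor with very many splice forms. At the other end were Eph (19.4), Wnt5 (20.6), Ephrin (23.1) and robo3 (25.6), and Eph and Ephrin, on chromosome 4, had no pooled peak within 500 bp of a TSS. Pooled peaks lay at promoters of 31 of the 33 genes, against 53.6% of all protein-coding genes, a share not set beside genes of like length. The strongest pooled peak at axon guidance loci outside the IDR list was a second one at Abl, with a signal value of 70.9.

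**Figure D4:**
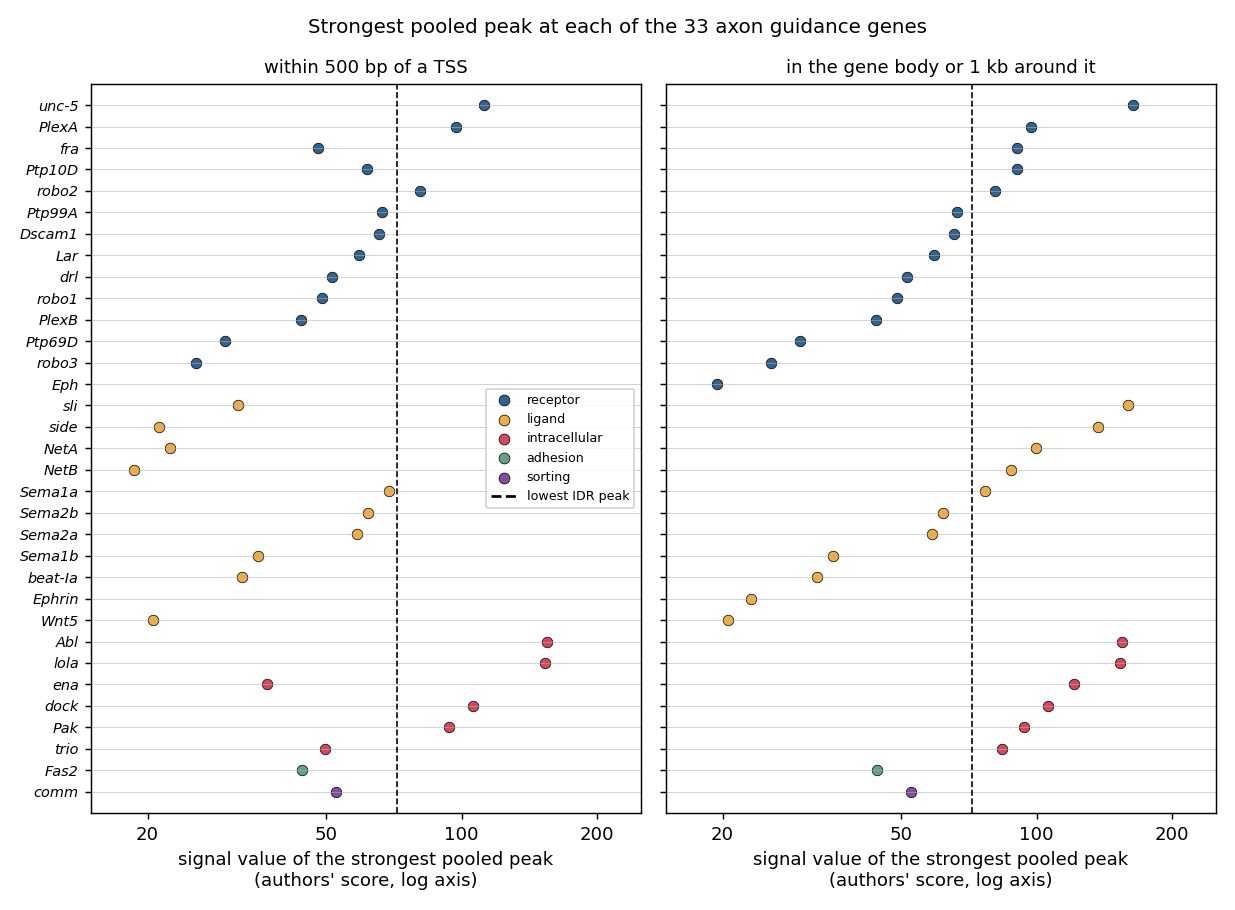
Signal value of the strongest pooled peak (x, authors' score, log axis) at each of the 33 genes (y, by role), within 500 bp of a TSS (left) and in the gene body or 1 kb around it (right), with a dashed line at the lowest IDR peak, 71.8. On the left 7 genes stand right of the line; on the right 16 do, the genes that cross it there including sli, side, NetA and NetB.

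The nearest IDR summits to genes without one were 1.9 kb from Wnt5, 2.49 kb from Lar and 7.2 kb from comm. The other 14 were between 7.23 kb (Sema1b) and 139 kb (beat-Ia) from one.

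Other genes of axon guidance and neuronal recognition were set beside the same shares. Of 77 listed, 76 were found, and 11 of them (14.5%) had a promoter summit, against 15.8% of all protein-coding genes and a count of 15.1 at the shares of their length classes. Their promoter summits had a median signal value of 141, against 112 over all IDR peaks at promoters. In the body or flanks 30 (39.5%) had a summit, against 23.0% of all protein-coding genes and 29.0 at the length-class shares. Without replicate 1, 2 or 3, 8, 7 and 7 of the 76 had a promoter summit, against 11.6%, 10.6% and 11.4% of all protein-coding genes. Among the strongest promoter summits were those at RhoGAP93B (251), the actin regulator WASp (241), the kinase gene Src64B (236) and the receptor phosphatase gene Ptp4E (219.7). Among the strongest in bodies or flanks, beside RhoGAP93B, were those at beat-Ib (258), comm3 (252) and kirre (249), which held 9. All 7 of these exceed the highest value at the 33 genes, 164, but they were picked as the highest among 76 genes. They include relatives of beat-Ia, comm and Ptp10D, while other relatives had no IDR summit. Those without were beat-Ic, beat-IIa, beat-IIb, beat-IIIc, beat-IV, beat-Va, beat-VI and comm2. The phosphatase gene Ptp52F had a summit of 91.7, not at its promoter.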

How the data were processed

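ChIP-seq peak lists in dm6 were analysed. Per the labels' protocols and the deposited README texts, the authors made 1 list per replicate and 1 from the 3 replicates' pooled alignments, each with a control, and derived the IDR list from these. Aligner, peak caller and IDR threshold: not stated in labels or files. The deposited lists carry a signal value, a score of unstated scale, a q-value as -log10 q and a summit offset. As 22 of the 24 summits share the ceiling of -log10 q, peaks were ranked by signal value. The dm3 lists and the control were not used here.

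The annotation was Ensembl release 115 (BDGP6.54) and the sequence the RefSeq copy of that assembly. Promoters were 500 bp around any TSS of a protein-coding gene, and summits elsewhere were placed by exon, UTR or intron. Replicate peaks matched an IDR peak by at least 1 bp. Length classes were split at 5, 20 and 60 kb. The 11 motifs were searched on both strands within 100 bp of summits, and CGATAG and ACACTG were added after the data were seen. Leaving out a replicate kept IDR peaks among the strongest 2780 of both others. The placement was tested on simulated data with planted summits. The members, lists and motifs were chosen with earlier results of these data known, so no list was tested. The rule for named genes took every member with a summit, in full for the strongest, the 3 others nearest to one, and of other pathway genes the 5 strongest at promoters and the 5 strongest in body or flank; values of further members were given after they were seen, and 1 of these pathway genes is not reported here. Alternatives covered the promoter and flank distance, TSS set, peak position, threshold, overlap and each replicate. Python 3.11.15, SciPy 1.17.1 and matplotlib 3.10.9 were used.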

Additional observations from a re-analysis of the deposited data

How the results depend on the processing

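With promoters limited to 250 bp, widened to 1000 bp or measured from the peak midpoint, 6, 7 and 7 genes had a promoter summit (12.9%, 17.9% and 15.8% of all genes), lola being lost at 250 bp. From canonical TSSs alone it was 4 (all genes 13.9%), since unc-5, Pak and lola have theirs at internal TSSs. In the 1390 IDR peaks of highest signal value, which are fewer peaks by construction, 3 genes had a promoter summit (unc-5, Abl and lola; all genes 8.62%), 6 a summit in body or flanks (13.0%), and 8 summits were left. In the pooled list, with many more peaks, the counts were 31 genes (53.6%), 33 genes (73.7%) and 314 summits. A flank of 5000 bp gave 18 genes (all genes 38.7%) and 37 summits, and no flank 13 genes (7.9%) and 19 summits. The promoter summits of Abl, dock and PlexA lie just upstream of the gene and drop out there.

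Leaving out replicates in turn kept IDR peaks that were among the strongest of the remaining pair. Genes with a promoter summit numbered 3 to 6 (6 without replicate 1, 4 without replicate 2, 3 without replicate 3), and unc-5, Abl and lola remained each time. Genes with a summit in body or flanks numbered 8 to 12, summits 10 to 14, and their median signal value was 115 to 128, an alternative added after the data were seen. The mean signal value of the replicates' own peaks had a median of 31.0, against 37.5 over all IDR peaks, on the replicates' lower scale. Summits shared by all replicates numbered 18 with 5560 strongest peaks and 3 with 1390, were 8 under 2 stricter overlaps, and were 10 to 14 with each replicate left out. By definition the last counts are those of the summits kept. The share of summits outside promoters was 62.5% to 70.8% under the other promoter definitions, and 7 of 14, 7 of 12 and 6 of 10 summits without replicate 1, 2 or 3. For the 76 other pathway genes, by alternatives chosen after seeing the data, 7 had a promoter summit in the stronger IDR peaks (all genes 8.62%). With a replicate left out it was 7 to 8 (all genes 10.6% to 11.6%). At 250 and 1000 bp it was 9 and 13 (all genes 12.9% and 17.9%).

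No paired analysis was possible because the samples form 1 group. The unknown depth, 33 genes and replicates that differ at single summits limit what these counts can show.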
